A study of Mus musculus with 8 samples.

Results

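At 37°C, 1642 of 7882 SN4741 cells held 3 or more unique molecules (UMIs) of Stmn2 and are described here as Stmn2 cells. The cells were selected on their own Stmn2 UMIs, among cells of the 4 libraries at 37°C with at most 15% mitochondrial UMIs, 200 to 6000 detected genes and at least 5000 UMIs. The comparison cells came from the same libraries and held 0 Stmn2 UMIs, 4930 cells in all, and the 1310 cells with 1 or 2 UMIs were kept apart. The Stmn2 cells made up 20.8% of the 37°C cells within the limits, and the series as deposited held 19125 cells. Of the Stmn2 cells, 460 came from replicate 1, 318 from replicate 2, 364 from replicate 3 and 500 from replicate 4.

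Stmn2 encodes stathmin-2, also called SCG10, a membrane-attached phosphoprotein that binds tubulin and favours the disassembly of microtubules. In neurons it is concentrated in growth cones, where microtubules are remodelled as axons extend, and it is commonly used as a marker of young neurons. Its gene is among those that the repressor REST keeps silent outside the nervous system. The other stathmins share the tubulin-binding domain, and Stmn1, the most widely expressed of them, is high in dividing cells.

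SN4741 is a mouse line made from embryonic substantia nigra with a temperature-sensitive T antigen driven by a tyrosine hydroxylase promoter, and it is described as clonal, so that all libraries share 1 cell source. The study karyotyped undifferentiated cells of the line and reported an unstable polyploid karyotype with most chromosomes triploid. The karyotyped cells all differed from each other in their chromosome complement. All 8 libraries are labelled wild type. The 37°C cultures grew in medium with 10% serum, and the other 4 libraries came from cells held for 48 hours at 39°C in 0.5% serum, so that temperature and serum cannot be told apart. Single-cell 3′ libraries held 1799 to 2730 cells each at 37°C and 1167 to 3557 at 39°C, with 22988911 to 33652656 UMIs per library. No pair of libraries shared more than 5 cell barcodes. The labels call the cells neural precursor cells, which was checked against markers below.

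Stmn2 itself (ENSMUSG00000027500) lies on the forward strand of chromosome 3, 8509360 to 8561606 in GRCm38. Its level over all 37°C cells within the limits was 119 CPM in replicate 1, 98.3 in replicate 2, 102 in replicate 3 and 129 in replicate 4, where CPM is a gene's UMIs relative to all UMIs of the same cells, on the scale usual for libraries. In the selected cells the level was 346 ± 36.2 CPM (SD, n = 4). These values chose the cells and are given as a description. The cells held a median of 5 to 6 Stmn2 UMIs per library, and the highest cell of each library held 22 to 44. Between 83.4% and 87.4% of all Stmn2 UMIs of a library lay in the selected cells. Just inside the limit were 379 cells with 3 UMIs, just outside it 504 cells with 2, and 281 cells held 10 or more.

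The UMIs of Stmn2 were spread over the cells more unevenly than those of most genes of like level. After every cell was thinned to 5000 UMIs, the variance of the Stmn2 count divided by its mean was 2.17 in replicate 1, 2.27 in replicate 2, 2.18 in replicate 3 and 2.33 in replicate 4. The median over the 767 to 1018 genes per library with a similar mean was 1.06 to 1.07, where a value of 1 is what counting alone gives. Between 4 and 11 of those genes per library had a higher ratio. At 39°C the same rule found 678 of 8133 cells, 7.12% to 9.63% of a library against 19.9% to 21.4% at 37°C. With all cells thinned to 5000 UMIs and a limit of 2 Stmn2 UMIs, the shares were 9.46% to 13.7% at 37°C and 3.37% to 6.04% at 39°C, so the order of the temperatures was the same at equal depth. No cell type known to lack Stmn2 was in these cultures, so a background share from free RNA was not available.

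**Figure D1:**
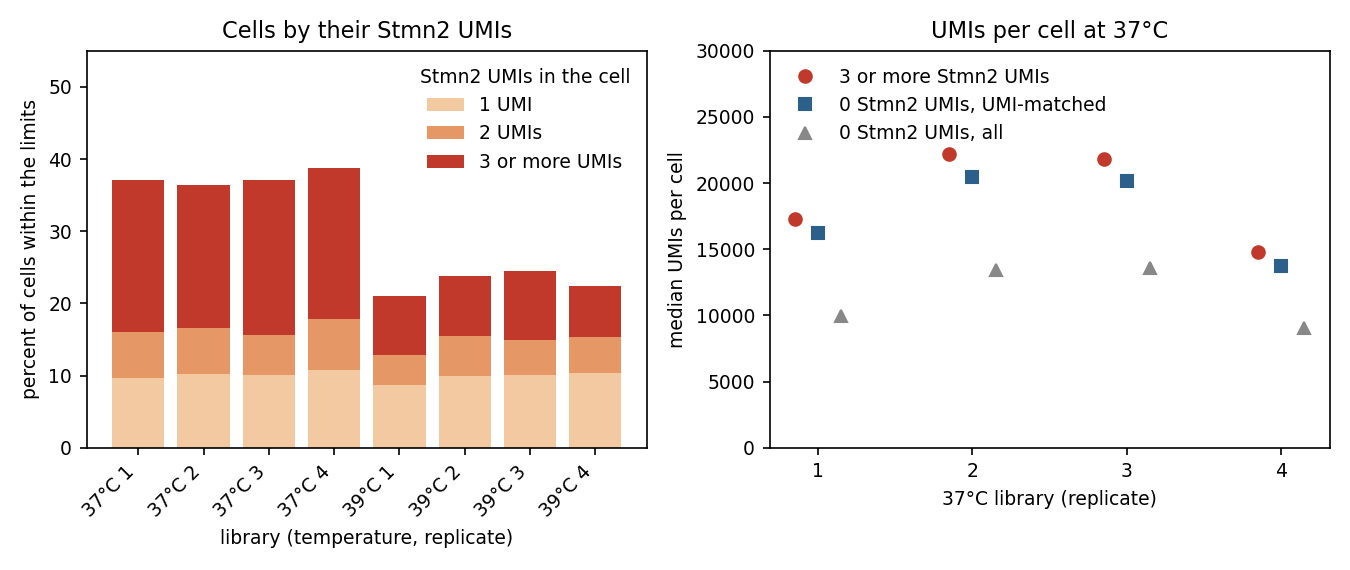
Left, the percent of the cells of each library (horizontal axis) that held 1, 2 or at least 3 Stmn2 UMIs, as stacked bars. The cells with at least 3 make up 19.9% to 21.4% at 37°C and 7.12% to 9.63% at 39°C. Right, the median UMIs per cell in each 37°C library for the Stmn2 cells (circles), UMI-matched cells with 0 Stmn2 UMIs (squares) and all cells with 0 (triangles), showing that the selected cells are the deepest in every library.

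A limit on raw UMIs picks deep cells, and the Stmn2 cells were deep. Their median UMI total was 17306 in replicate 1, 22229 in replicate 2, 21826 in replicate 3 and 14774 in replicate 4, against 9977, 13434, 13600 and 9031 in all cells with 0 Stmn2 UMIs. The excess of 7524 ± 1332 UMIs (SD, n = 4) was present in 4 of 4 libraries (two-sided exact permutation test over sign changes of the within-library differences, p = 0.13, the smallest that 4 libraries allow). Each Stmn2 cell was therefore paired with the unused cell of 0 Stmn2 UMIs nearest in UMI total in its library. The matched cells still had 1042 to 1735 fewer UMIs at the median, since the deepest selected cells had few partners, and this remainder moves with every result at 37°C.

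The Stmn2 cells were more often assigned to G1 than matched cells. Phases were assigned from published S and G2M gene sets. The G1 share was 31.7% against 17.4% in replicate 1, 25.2% against 17.3% in replicate 2, 23.4% against 12.1% in replicate 3 and 24.4% against 12% in replicate 4, and the groups did not overlap. The difference was 11.5 ± 2.72 percentage points (SD, n = 4), positive in 4 of 4 libraries. The S share was 7.16 ± 4.67 points lower, and the G2M share 4.31 ± 2.70 points lower, in 4 of 4 libraries each. All 3 differences had p = 0.13 by the same exact permutation test. Against all cells with 0 Stmn2 UMIs, which are shallower, the G2M share of the Stmn2 cells was 3.49 points higher, so that direction depended on the depth of the comparison cells. Stmn2 cells were nonetheless present in each phase, making up 23.6% ± 2.11 of G1 cells, 17.9% ± 1.84 of S cells and 22.3% ± 1.30 of G2M cells (SD, n = 4).

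The Stmn2 cells lay near each other in the expression of other genes. Among the 30 nearest neighbours of a Stmn2 cell, computed per library on 20 principal components of 2000 variable genes without Stmn2, 72.6% to 76.7% were Stmn2 cells, where even mixing with the matched cells would give 50%. For the matched cells, 35.8% to 37.9% of neighbours were Stmn2 cells. The difference was 38.0 ± 2.58 percentage points (SD, n = 4; two-sided exact permutation test, p = 0.13).

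Against the UMI-matched cells, 2173 of 11862 genes tested were higher in the Stmn2 cells (18.3%) and 2289 lower (19.3%), with adjusted p under 0.05 by edgeR's quasi-likelihood test on UMI sums per library, with the library as a block and Stmn2 left out. Against all cells with 0 Stmn2 UMIs, 2851 of 12436 genes were higher (22.9%) and 2747 lower (22.1%). With library totals in place of TMM scaling factors, the second comparison split into 2256 higher and 3357 lower. The called differences were mostly small, with a median size of 0.30 on the log2 scale in the matched comparison, and 136 genes rose and 256 fell by more than 1. The matched comparison is the one described from here on, and levels are CPM scaled by TMM factors.

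Among the largest rises were those of Slurp1, Cdhr1, Scara5, Prg4, Sprr1a, Sprr2k, Prelp, Svip, Pla2g7, Glul and Mettl7a1. Slurp1 (ENSMUSG00000022596, chromosome 15, 74724318 to 74728034), a secreted Ly6-family protein known from keratinocytes, was at 29.6, 20.8, 22.1 and 21.6 CPM in the Stmn2 cells of replicates 1 to 4. It was at 3.79, 2.49, 3.99 and 4.71 CPM in the matched cells, so every library of Stmn2 cells lay above every matched one. It rose by 2.64 on the log2 scale, with an SE of 0.13 and an adjusted p of 1.29e-18 in the edgeR fit. Only 14.8% to 19.8% of the Stmn2 cells of a library held a Slurp1 UMI, against 3.04% to 4.67% of matched cells.

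Cdhr1 (ENSMUSG00000021803, chromosome 14, 37077857 to 37098347), a cadherin of photoreceptors, was at 36.1, 38.6, 36.0 and 38.7 CPM in the Stmn2 cells and at 8.63, 6.70, 10.5 and 10.9 CPM in matched cells. It rose by 2.01, with an SE of 0.10 and an adjusted p of 5.93e-19 by edgeR. Cdhr1 UMIs were found in 38.0% to 43.1% of Stmn2 cells and 10.2% to 15.1% of matched cells. Scara5, a scavenger receptor that takes up ferritin, rose by 1.98. The lubricating proteoglycan Prg4 rose by 1.82 and the matrix proteoglycan Prelp by 1.71. Glul, the glutamine synthetase, was at 66.4 to 73.3 CPM in the Stmn2 cells and at 23.4 to 26.0 CPM in matched cells, a rise of 1.49. Pla2g7, which hydrolyses platelet-activating factor, rose by 1.60. Svip and Mettl7a1 rose by 1.65 and 1.49.

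Sprr1a and Sprr2k belong to the small proline-rich proteins of the cornified envelope, and Sprr1a is also known from regenerating axons. They rose by 1.76 and 1.73, but near-identical family members can share reads, so these values are uncertain. Sprr1a also varied among the matched cells, from 18.8 CPM in replicate 1 to 52.8 CPM in replicate 2, while the Stmn2 cells were at 87.4 to 110 CPM. Its log2 fold change was 2.07 without replicate 2 and 1.61 to 1.75 without each of the others.

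The 10 largest falls were those of Tm4sf1, Gsta4, Lrrc28, Fgf7, Hspb1, Synm, Tsix, Olfml2b, Atg9b and Cd68. Tm4sf1 (ENSMUSG00000027800, chromosome 3, 57285611 to 57301988), a membrane protein of the L6 family, was at 4.11, 3.49, 3.24 and 5.36 CPM in the Stmn2 cells. In matched cells it was at 39.1, 36.1, 51.5 and 46.6 CPM, and the groups did not overlap. It fell by 3.42 on the log2 scale, with an SE of 0.11 and an adjusted p of 3.44e-24 by edgeR. Tm4sf1 UMIs were found in 4.00% to 5.43% of Stmn2 cells and in 20.2% to 28.0% of matched cells, so most cells of either kind held none.

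Gsta4 (ENSMUSG00000032348), a glutathione transferase that acts on lipid peroxidation products, was at 9.22 to 10.6 CPM in the Stmn2 cells and 33.4 to 48.1 CPM in the matched cells, a log2 fold change of -2.12. Hspb1, a small heat shock protein, fell by 1.57 on the log2 scale, the growth factor Fgf7 by 1.74 and the lysosomal glycoprotein Cd68 by 1.34. Atg9b, an autophagy protein, fell by 1.39 and Olfml2b by 1.40. Lrrc28 and Synm, which encodes the intermediate filament protein synemin, are neighbours on chromosome 7 (67513410 to 67645268 and 67730160 to 67759742) and fell by 1.80 and 1.45. For both genes the Stmn2 cells were tight, at 19.2 to 23.1 and 37.1 to 44.9 CPM, while the matched cells ranged from 41.7 to 112 and from 73.1 to 142 CPM across the 4 libraries. Tsix fell by 1.45. It is antisense to Xist, and whether the counting used strand is not stated in the sources used here, so reads of this pair may not be told apart.

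**Figure D2:**
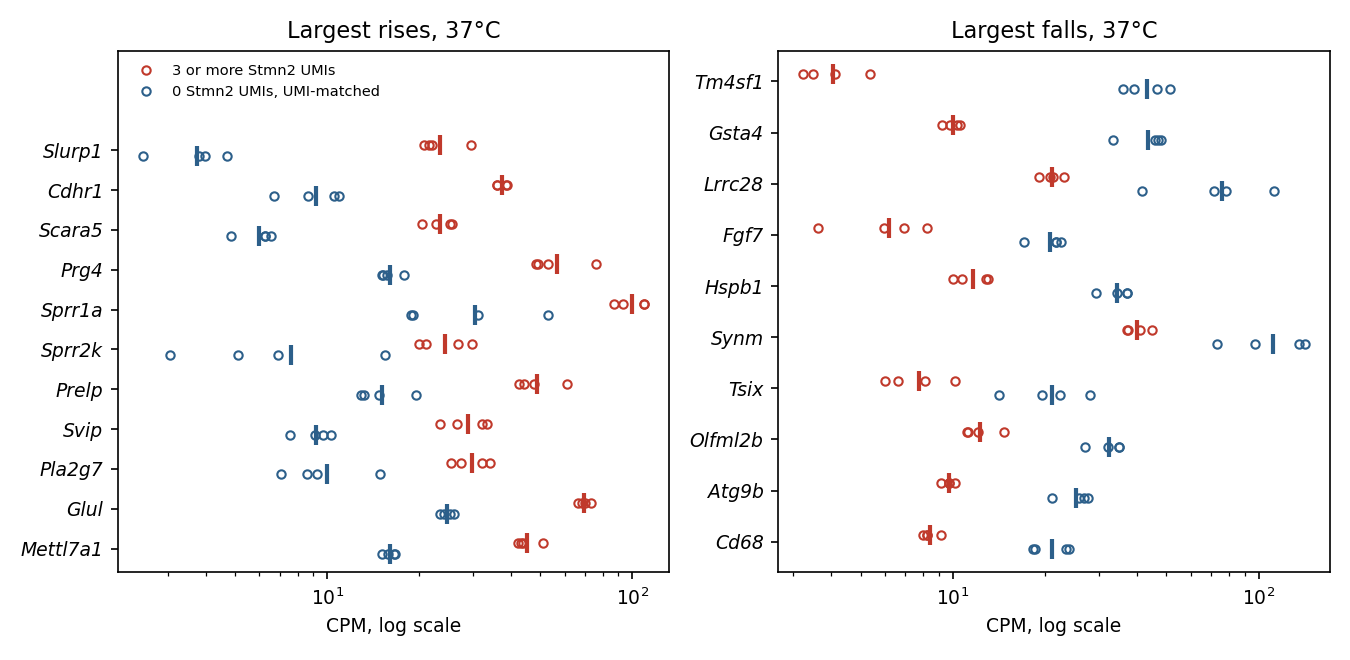
Levels of 11 genes among the 12 with the largest rises (left) and the 10 with the largest falls (right) at 37°C, in CPM on a log axis. Open circles are the 4 libraries and bars their means, red for Stmn2 cells and blue for UMI-matched cells with 0 Stmn2 UMIs. In each of the 21 genes all 4 red points lie on the same side of all 4 blue points. These genes were chosen for large changes with the same sign in all 4 libraries, so the separation follows in part from that choice. The share of all tested genes that separate in this way is not given here.

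The 4 smallest p-values belonged to genes whose levels are high enough for small errors and which the naming rule did not pick, so they were chosen after their values were seen. Anxa5, the phosphatidylserine-binding annexin, was at 397 to 451 CPM in the Stmn2 cells and at 1019 to 1074 CPM in matched cells, a fall of 1.31 with an SE of 0.03 and an adjusted p of 1.74e-30 by edgeR. Xist, the RNA that coats the inactive X chromosome, was at 299.8 to 348 CPM against 722 to 796 CPM, a log2 fold change of -1.25. The tetraspanin Tspan8 was at 359 to 416 CPM against 141 to 170 CPM, a rise of 1.35. Flrt2, a membrane protein of axon guidance and cell adhesion, was at 216 to 269 CPM against 82.9 to 105 CPM, a rise of 1.32. None of these 4 genes overlapped between Stmn2 and matched cells, which follows in part from choosing the smallest p-values. The share of all tested genes without overlap is not given here. Of 11862 genes, 4127 passed the test with the same sign in all 4 libraries. Each of the 4 genes differed in the same direction at 39°C, with adjusted p under 0.05 there too.

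The other stathmins did not follow Stmn2. Stmn1 was at 408, 456, 448 and 437 CPM in the Stmn2 cells and at 533, 548, 579 and 560 CPM in matched cells, and fell by 0.35 with an SE of 0.03 and an adjusted p of 4.37e-13 by edgeR. Stmn3 was seen with 1 UMI and Stmn4 with 3 in all Stmn2 cells together, too few to test. Of the 15 stathmin and tubulin genes besides Stmn2, 12 were tested, 3 were higher and 7 lower, beside 18.3% and 19.3% of all genes. The median difference was -0.11 on the log2 scale, beside 0.00 over all genes. Against all cells with 0 Stmn2 UMIs the same list had 5 of 12 higher and 3 lower, beside 22.9% and 22.1% of all genes. Its median was 0.06 there, so the sign of the median turned with the comparison cells. At 39°C it had 1 of 12 higher and 2 lower, beside 9.16% and 8.07% of all genes, too few to read as a direction. Tubb3, the neuronal beta-tubulin, was among the higher ones, at 17.4 to 22.4 CPM against 10.5 to 16.6 CPM (log2 fold change 0.45, adjusted p = 0.000845 by edgeR), and Tuba1a, an alpha-tubulin of growing neurons, rose by 0.24. Tubb5, a tubulin common in dividing cells, was at 626 ± 40.4 CPM against 960 ± 81.9 CPM in matched cells (SD, n = 4), a fall of 0.62, and Tubb6 fell by 0.20 on the log2 scale.

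Genes of axon growth and the neuronal cytoskeleton were split. Of 28 such genes, 16 had enough counts to test, 9 were higher and 4 lower, beside 18.3% and 19.3% of all genes, and the median difference was 0.19. Map1b, a microtubule-associated protein of growing axons, was at 204, 203, 193 and 219 CPM in the Stmn2 cells against 135, 131, 123 and 140 CPM, and rose by 0.63, with an SE of 0.04 and an adjusted p of 7.47e-17 by edgeR. The related Map1a rose by 0.56, the growth-cone protein Basp1 by 0.40, the adhesion molecule Ncam1 by 0.36 and the dendritic Map2 by 0.20. Gap43, another growth-cone protein, was low at 1.35 ± 0.52 against 2.35 ± 0.83 CPM (SD, n = 4) and fell by 0.77, with adjusted p = 0.0326 by edgeR. Map2 and Gap43 each had the opposite sign in 1 of the 4 libraries.

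Defining genes of neurons were absent or close to it in the Stmn2 cells. Dcx, Elavl3, Elavl4, Snap25, Syt1, Rbfox3, Ina and Nefl had 0 UMIs among the 30693549 UMIs of the 1642 cells, which allows a level of up to 0.0977 CPM for each, for counting error only. Of 29 pan-neuronal RNA-binding and synaptic genes, 10 were tested, 4 higher and 4 lower, beside 18.3% and 19.3% of all genes. The summed level of the list was 292 to 307 CPM in Stmn2 cells and 309 to 346 CPM in matched cells, as a share of all UMIs. Celf4 and Celf5, neuronal RNA-binding proteins, fell by 0.42 and 0.16, the vesicle protein Syt11 by 0.48 and the ubiquitin hydrolase Uchl1 by 0.42, while the synaptic vesicle GTPase Rab3a rose by 0.36. Of 29 proneural and neuronal transcription factors, 19 had 0 UMIs in the Stmn2 cells, 2 of the 5 tested were higher (Sox11, 0.62, and Ebf1, 0.52) and 2 lower (Sox4, -0.75, and Tcf4, -0.27).

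The repressor Rest, a gene of chromosome 5 whose known targets include Stmn2, was at 97.2 ± 2.45 CPM in Stmn2 cells and 121 ± 4.38 CPM in matched cells (SD, n = 4). Its log2 fold change was -0.31, and the median of all chromosome 5 genes given below was also -0.31. Whether the fall of Rest is linked to the shift of that chromosome or to Stmn2 was not tested. Of the list of 20 secretory granule and REST-related genes, which includes Rest, 6 were tested, 0 were higher and 4 lower. The 4 lower were Rest itself, Bex3, Bex1 and Cpe. Bex3 fell by 0.49 and Cpe, a prohormone-processing carboxypeptidase, by 0.09, the last with the opposite sign in 1 library. Bex1 had 13 UMIs in 8 Stmn2 cells and 165 UMIs in 94 matched cells, a log2 fold change of -3.70. The counts of the list are read beside the backgrounds of 18.3% higher and 19.3% lower over all genes.

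**Figure D3:**
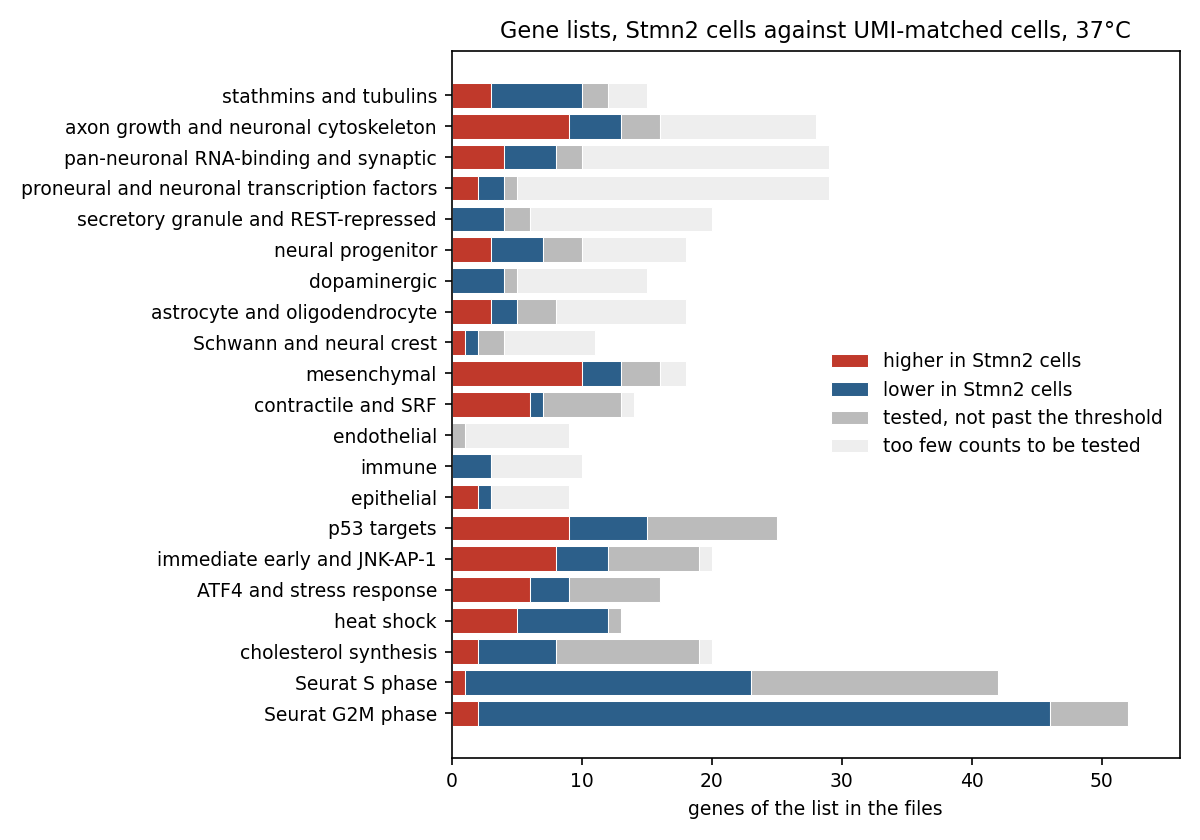
For each gene list (vertical axis), the number of genes that were higher (red) or lower (blue) in Stmn2 cells than in UMI-matched cells at 37°C, were tested without passing the threshold (dark grey), or had too few counts to be tested (light grey). Neuronal lists are mostly untested or split, and the G2M list is lower in 44 of 52 genes, where 19.3% of all genes are lower and 18.3% higher.

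Progenitor genes moved in both directions. Nes, the neural stem cell intermediate filament nestin, was at 644, 665, 604 and 762 CPM in Stmn2 cells and at 386, 390, 390 and 462 CPM in matched cells, a rise of 0.71 with an SE of 0.03 and an adjusted p of 3.49e-22 by edgeR. Sox2, the stem cell transcription factor, was at 29.8 to 33.3 CPM against 59.3 to 64.8 CPM, a log2 fold change of -0.97. The groups of both genes did not overlap, and the share of all tested genes without overlap is not given here. Of 18 progenitor genes 10 were tested, 3 higher and 4 lower, beside 18.3% and 19.3% of all genes. Id2, an inhibitor of basic helix-loop-helix factors, fell by 0.65 and the Notch effector Hes1 rose by 0.38.

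Dopaminergic genes were lower wherever a difference passed the test. Of 15 genes of that list 5 were tested, and 4 were lower and 0 higher, beside 19.3% and 18.3% of all genes. The midbrain transcription factor Foxa2 was at 9.59 to 12.2 CPM in Stmn2 cells and 13.7 to 18.2 CPM in matched cells (log2 fold change -0.61, adjusted p = 1.82e-05 by edgeR). Nr4a2, the orphan receptor of dopamine neurons, was at 0.87 to 2.18 CPM against 4.32 to 5.32 CPM, a log2 fold change of -1.54. Aldh1a1, a retinaldehyde dehydrogenase of some dopamine neurons, had 8 UMIs in 7 Stmn2 cells and 60 UMIs in 39 matched cells. En1 fell by 0.44. Th, the rate-limiting enzyme of dopamine synthesis, had 1 UMI in all Stmn2 cells, and Slc6a3, Ddc, Pitx3, Lmx1a and Lmx1b had 0.

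Markers of other cell types were compared in the same cells, with 18.3% of all genes higher and 19.3% lower as the background of each count. The summed level of 10 immune markers was 8.30 to 11.1 CPM in Stmn2 cells and 29.4 to 38.1 CPM in matched cells, with Ptprc, Tyrobp and Cd3e at 0 UMIs in the Stmn2 cells. Of the 3 tested, 0 were higher and 3 lower, Cd68, Lyz2 and Cx3cr1. Lyz2, which encodes a lysozyme, had 10 UMIs in 7 Stmn2 cells and 277 UMIs in 132 matched cells. The summed level of 9 epithelial markers was 142 to 181 CPM against 115 to 134 CPM, with Epcam and Cldn4 at 0. Here Krt14 and Krt19 rose by 1.34 and 0.63 and Krt7 fell by 0.63. Of 18 astrocyte and oligodendrocyte genes 8 were tested, and 3 were higher and 2 lower. Gfap, Aqp4, Olig1, Olig2, Sox10 and Mog were at 0, and the summed level was 63.5 to 74.8 against 59.4 to 67.3 CPM. Of 11 Schwann and neural crest genes 4 were tested, and 1 was higher and 1 lower. Sox10, Foxd3, Tfap2b and Cdh19 were at 0, and the summed level was 128 to 154 against 111 to 120 CPM. Among 9 endothelial genes, 1 was tested and did not pass, the list summed to 20.99 to 26.3 against 20.9 to 28.5 CPM, and Cdh5, Kdr, Emcn, Cldn5 and Tie1 were at 0. The part of any such cells in the results was not tested.

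Matrix genes were mostly higher in the Stmn2 cells, where 18.3% of all genes were higher and 19.3% lower. Of 18 mesenchymal genes 16 were tested, and 10 were higher and 3 lower, with a median of 0.25. Lox, which cross-links collagen and elastin, was at 98.2 to 121 CPM against 50.2 to 64.7 CPM and rose by 0.93. Col1a2 rose by 0.57, Col1a1 by 0.21 and the adhesive glycoprotein fibronectin, Fn1, by 0.28. Of the 14 contractile genes in the files, 13 were tested, 6 were higher and 1 lower. The actin-binding Tagln rose by 0.58, vinculin, Vcl, by 0.43, tropomyosin, Tpm1, by 0.38 and Cnn2 by 0.29.

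Cell-cycle genes were lower. The S and G2M genes counted here also assigned the phases, so their fall and the smaller S and G2M shares are not separate results. Of the 52 G2M genes used for the phases, 44 were lower and 2 higher, with a median of -0.29. Of the 42 S genes 22 were lower and 1 higher, with a median of -0.15. Over all genes 19.3% were lower and 18.3% higher. Against all cells with 0 Stmn2 UMIs, 24 of the G2M genes were lower and 7 higher, with a median of -0.09. In that comparison 19 of the S genes were lower and 2 higher, beside 22.1% lower and 22.9% higher over all genes. Mki67, a marker of proliferation, was at 205, 209, 203 and 220 CPM in Stmn2 cells and 269, 285, 316 and 353 CPM in matched cells, and fell by 0.54 with an SE of 0.04 and an adjusted p of 1.45e-14 by edgeR. Hmgb2 fell by 0.55, the centromere genes Cenpa and Cenpe by 0.60 and 0.48, and Tyms, the thymidylate synthase, by 0.60. Among cells assigned to G1 alone, Mki67 was 0.05 higher and Cenpe 0.01 higher in the Stmn2 cells. Both genes helped to assign the phases, so the choice of G1 cells limits their levels. Whether they differ within G1 cannot be read from this. Of the phase genes that were named, Tyms, Rfc2, Slbp and Cenpa lie on chromosome 5, which is described below.

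Stress and signalling lists were mixed. Their counts are read beside 18.3% higher and 19.3% lower over all genes. Among 25 p53 targets 9 were higher and 6 lower, with a median of 0.04. The cell-cycle inhibitor Cdkn1a rose by 0.29, Ccng1 by 0.23 and Phlda3 by 0.17, while Zmat3 fell by 0.34. Of 20 immediate early and JNK pathway genes 19 were tested, 8 higher and 4 lower. Jund, Junb and Ier2 rose by 0.34, 0.22 and 0.24, and Atf3 fell by 0.58. Of 16 genes of the ATF4 list 6 were higher and 3 lower. Nupr1, Atf4 and Cebpb rose by 0.41, 0.25 and 0.24, and Ddit3, the CHOP transcription factor, fell by 0.67. Of 13 heat shock genes 5 were higher and 7 lower. Against all cells with 0 Stmn2 UMIs 7 were higher and 4 lower, beside 22.9% and 22.1% of all genes there. The balance thus turned with the comparison cells. Hspb1 was by far the most changed of those named, since Hspa8 and Hsp90ab1 fell by 0.12 and 0.10 and Dnaja1 rose by 0.16. Of 20 cholesterol synthesis genes 19 were tested, 2 were higher and 6 lower. Cyp51, Mvk and Insig1, all on chromosome 5, fell by 0.39, 0.39 and 0.27.

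The genes around Stmn2 were not raised with it. Of 17 tested genes that start within 5 Mb of Stmn2, 10 were lower, 0 higher, and 17 of 17 had a negative log2 fold change, with a median of -0.32. Over all tested genes 19.3% were lower and 18.3% higher, and 50.7% had a negative log2 fold change. The lower ones were Zfhx4, Pex2, Mrps28, Tpd52, Zfp704, Fabp5, Impa1, Zfand1, Chmp4c and Snx16. Fabp5, a fatty acid binding protein, was at 10.2 to 12.2 CPM in Stmn2 cells and 17.9 to 29.9 CPM in matched cells, a log2 fold change of -1.16. Snx16, a sorting nexin of endosomes, fell by 0.51 and the other 8 by 0.32 to 0.49. Over the whole of chromosome 3, 222 of 584 genes were lower (38.0%) and 39 higher (6.68%), with a median of -0.15.

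The largest difference by position was on chromosome 5, which does not hold Stmn2. Of 772 tested genes there, 500 were lower in the Stmn2 cells (64.8%) and 15 higher (1.94%), beside 19.3% lower and 18.3% higher over all genes. The median log2 ratio of chromosome 5 genes was -0.31 in replicate 1, -0.34 in replicate 2, -0.30 in replicate 3 and -0.29 in replicate 4, and the next lowest chromosome was chromosome 3. All 14 windows of 10 Mb along the chromosome had a negative median, from -0.47 to -0.27. Of the 253 windows in the genome with at least 10 tested genes, 27 had a median below -0.2, of which 14 were on chromosome 5, 7 on chromosome 3 and 4 on chromosome 17. Chromosome 5 held 6.51% of the tested genes and 21.8% of the lower ones. Outside it, 2158 genes were higher and 1789 lower.

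Other chromosomes were shifted up by smaller amounts, where 18.3% of all genes were higher and 19.3% lower. On chromosome 14, 158 of 397 genes were higher (39.8%) and 22 lower, with a median of 0.16, and on chromosome 15, 207 of 474 were higher (43.7%) and 33 lower, with a median of 0.14. Chromosomes 9, 11 and 6 had medians of 0.12, 0.09 and 0.09. The medians of chromosomes 3, 5, 9, 11, 14 and 15 had 1 sign in all 4 libraries (two-sided exact permutation test over sign changes, p = 0.13 for each), as had those of 9 other chromosomes. Of these 11 genes among the largest rises, Cdhr1 and Scara5 lie on chromosome 14 and Slurp1 and Mettl7a1 on chromosome 15, and of the 10 with the largest falls, Hspb1 and Atg9b lie on chromosome 5.

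**Figure D4:**
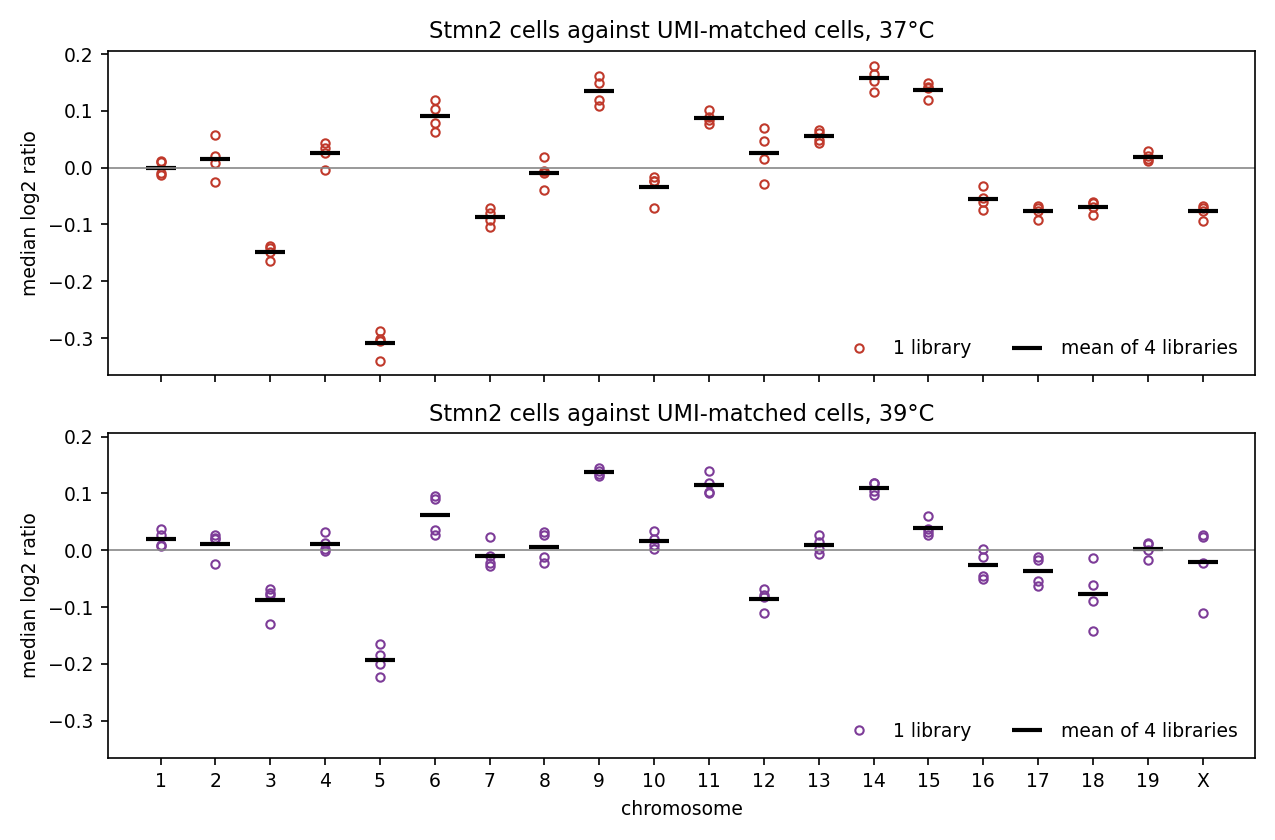
Median log2 ratio of the genes of each chromosome (horizontal axis), Stmn2 cells over UMI-matched cells, at 37°C (top) and 39°C (bottom). Open circles are the 4 libraries and bars their means. Chromosome 5 lies lowest in all 8 libraries, with medians of -0.34 to -0.29 at 37°C and -0.22 to -0.16 at 39°C.

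The shift of chromosome 5 was present cell by cell. Its genes gave a median of 5.20%, 5.35%, 5.52% and 5.46% of the nuclear-gene UMIs of a Stmn2 cell in replicates 1 to 4, and 6.66%, 7.04%, 7.15% and 6.96% of those of a matched cell. The groups of libraries did not overlap, and the difference was -1.57 ± 0.11 percentage points (SD, n = 4; two-sided exact permutation test, p = 0.13). Between 92.5% and 95.4% of Stmn2 cells lay below the median of the matched cells of their library. The Stmn2 cells were most frequent near 5.25% and the matched cells near 7.25%, and the matched cells also reached down to the range of the Stmn2 cells, where 10% of them lay below 5.20% to 5.65% depending on the library. Without the 5 chromosome 5 genes of most UMIs, Rplp0, Actb, Rpl6, Rpl9 and Rpl5, the difference was -1.18 points and 90.9% to 94.0% of Stmn2 cells lay below the matched median, an alternative chosen after seeing the data. The cells of this line that the study karyotyped differed from each other in their chromosomes. Chromosome copies were not measured in these libraries, and their part in the shift was not tested.

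**Figure D5:**
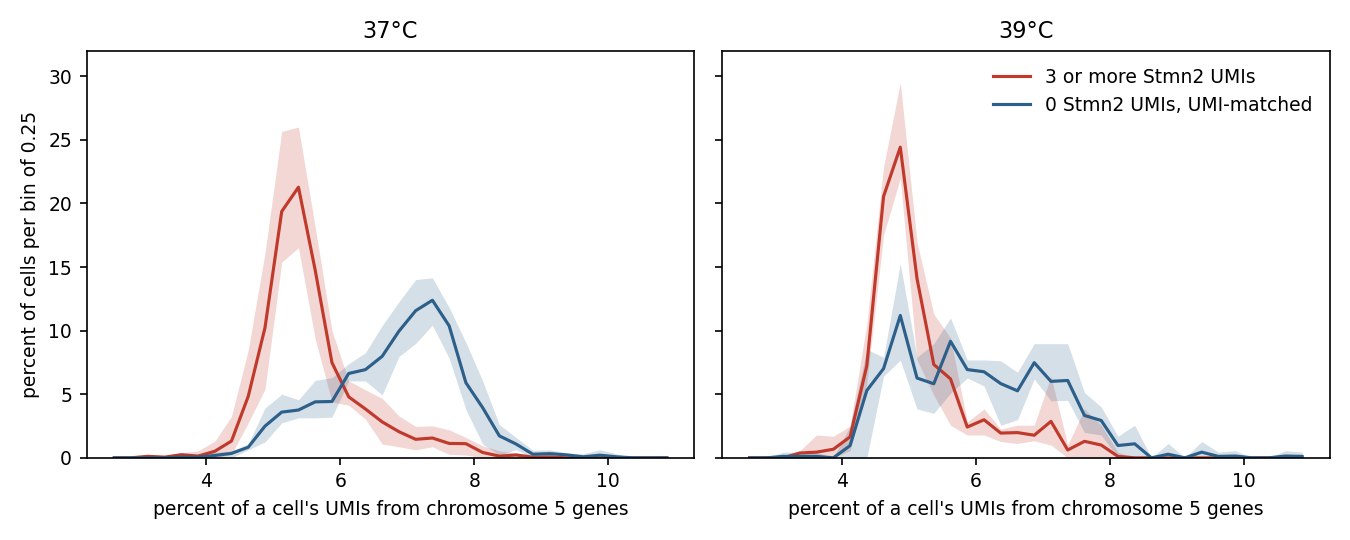
Distribution over cells of the percent of a cell's UMIs that came from chromosome 5 genes (horizontal axis, bins of 0.25), at 37°C (left) and 39°C (right). Lines are means of 4 libraries and shading their range, red for Stmn2 cells and blue for UMI-matched cells with 0 Stmn2 UMIs. The red peak lies near 5.25% at 37°C, where the blue peak lies near 7.25%, and at 39°C both kinds of cell are most frequent near 4.75%.

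Cells with 1 or 2 Stmn2 UMIs, which the rule left out, were compared with cells of 0 Stmn2 UMIs that the main comparison had not used. They were matched on UMI total in the same way, and the comparison was added after seeing the data. The match was incomplete, since the main comparison had already taken many deep cells. Median UMI totals were 13409, 16336, 16243 and 11802 in replicates 1 to 4, against 11091, 15350, 15205 and 9690 in the comparison cells. The values below are therefore not at equal depth. Of 11365 genes 1039 were higher (9.14%) and 968 lower (8.52%). On the log2 scale, Slurp1 was 2.13 higher in these cells and 2.64 higher in the Stmn2 cells, and Cdhr1 was 2.06 and 2.01 higher. Sprr1a was 0.79 and 1.76 higher and Prelp 0.89 and 1.71 higher. Tm4sf1 fell by 2.05 and 3.42. The median of chromosome 5 genes was -0.20, with 38.5% of them lower and 1.08% higher. Both comparisons come from the same 4 libraries.

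At equal depth the mean level of some genes rose with each Stmn2 count, and that of others was level beyond 1 UMI. After thinning to 5000 UMIs, Slurp1 was at 6.16 ± 1.17 CPM in the 5908 cells with 0 Stmn2 UMIs, 17.7 ± 5.80 in the 1060 with 1, 23.0 ± 3.62 in the 475 with 2 and 29.8 ± 2.81 in the 439 with 3 or more (SD, n = 4). Map1b went from 128 ± 10.7 to 158 ± 16.0, 188 ± 26.4 and 212 ± 27.5 CPM in the same order. Cdhr1 rose at 1 UMI and was level beyond it, at 10.9 ± 1.18, 28.8 ± 4.53, 30.2 ± 4.77 and 30.4 ± 14.8 CPM, and Scara5 and Svip were no higher at 2 UMIs than at 1. Tm4sf1 went from 31.9 ± 5.01 to 4.87 ± 4.46 CPM at 1 UMI and stayed at 3.36 ± 2.56 and 4.33 ± 3.42. The chromosome 5 share fell from 6.27% ± 0.14 to 5.46% ± 0.16, 5.27% ± 0.14 and 5.18% ± 0.23 of UMIs. For Tm4sf1, chromosome 5 and Map1b, the steps beyond 1 UMI were within or near the spread between libraries. The same held for the step of Slurp1 from 1 to 2 UMIs. The steps were not tested, so both patterns are descriptions of means only. Slurp1, Cdhr1, Scara5, Svip and Tm4sf1 were named for large changes between Stmn2 cells and cells with 0 UMIs of these same libraries. Their step away from 0 UMIs therefore follows in part from that choice. Before thinning, 4930 cells held 0 Stmn2 UMIs, so the 5908 cells with 0 after it include some that had Stmn2 UMIs.

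The 39°C libraries, which the choice of cells did not use, gave the same comparison in other cultures. There 992 of 10830 genes were higher in cells with 3 or more Stmn2 UMIs (9.16%) and 874 lower (8.07%), against matched cells whose median UMI total differed by at most 29. Of the 2097 genes that were higher at 37°C and tested at 39°C, 724 were also higher there (34.5%), and 21 were lower. These 724 were 73.1% of the genes higher at 39°C and tested at 37°C. Of the 2090 that were lower at 37°C, 587 were also lower at 39°C (28.1%) and 26 were higher, and the 587 were 67.2% of those lower at 39°C. At 39°C most cells of either kind were assigned to G1, 89.5% to 93.8% of the Stmn2 cells and 83.6% to 87.0% of the matched cells.

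Of the 21 genes given here for their large changes, 19 also passed the test at 39°C in the same direction. Slurp1 was at 31.0 to 35.7 CPM against 0.55 to 18.1 CPM there (log2 fold change 2.12, adjusted p = 1.33e-11 by edgeR), with replicate 4 the highest of the matched libraries. Prg4, Svip and Pla2g7 rose by 1.67, 1.69 and 1.60, and Atg9b and Cd68 fell by 1.33 and 1.37, close to their values at 37°C. Fgf7 did not pass (-0.76, adjusted p = 0.0661 by edgeR), and Sprr2k had too few counts to test. Nes and Map1b rose by 0.33 each, Sox2 fell by 0.76 and Foxa2 by 1.09, while Tubb3, at 0.09, did not pass (adjusted p = 0.839 by edgeR).

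The size of the contrast differed between temperatures for 552 of 11520 genes (4.79%), tested as an interaction in 1 fit over the 8 libraries. Among the 12 named genes with such a difference, that of Tm4sf1 was the largest, with a fall of 3.42 at 37°C and 1.49 at 39°C (difference 1.92, adjusted p = 1.60e-05 by edgeR). Cdhr1 rose by 2.01 at 37°C and 0.89 at 39°C (difference -1.12, adjusted p = 0.00171 by edgeR). For chromosome 5, the median at 39°C was -0.18, with 25.3% of 704 genes lower and 2.70% higher, beside 8.07% and 9.16% of all genes. The per-cell share of chromosome 5 was 4.91% to 5.00% in cells with 3 or more Stmn2 UMIs against 5.75% to 6.11% in matched cells. The difference of -0.92 ± 0.19 percentage points (SD, n = 4) was present in 4 of 4 libraries (two-sided exact permutation test, p = 0.13). Chromosome 12 had a median of 0.03 at 37°C and -0.11 at 39°C, chromosome 14 of 0.16 and 0.10, and chromosome 15 of 0.14 and 0.05. The per-cell share of chromosome 15 was 0.65 ± 0.09 points higher in the Stmn2 cells at 37°C. At 39°C it was 0.10 ± 0.12 points higher (SD, n = 4), with the opposite sign in 1 library.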

How the data were processed

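Per the labels and the deposited files, the authors counted UMIs per gene and cell with Cell Ranger 3.0.1 on mm10 (submitters' processing notes), and the filtered matrices hold these raw counts for 31053 genes. The study's own limits would keep 8550 of 8995 cells at 37°C and 9801 of 10130 at 39°C, and a limit of 5000 UMIs was added here. Each Stmn2 cell, in descending order of UMI total, took the nearest unused cell with 0 Stmn2 UMIs of its library. UMIs were summed per library and class, since cells are not replicates, and genes with a mean of at least 5 counts over the 8 sums were tested with edgeR 4.0.16 (quasi-likelihood, TMM factors, library as a block, Benjamini-Hochberg adjustment over all genes tested, threshold 0.05). The SE of a log2 fold change was derived from the fit, as its absolute value divided by the square root of the F statistic. The procedure was tested on simulated data. The 2 sums of a library come from the same culture, which is the pairing. The labels do not say whether the libraries came from separate cultures. With the library as a block, p-values measure how the difference within a library varies among these libraries only.

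Phases were assigned with Seurat 5.3.0, and neighbours and doublet scores computed with scanpy 1.11.5. Scrublet gave 2 cells a score over 0.5 and did not work as a caller, so the cells of highest score were removed as an alternative only. Positions came from GENCODE release 21 for mouse (GRCm38, the build of mm10), matched on Ensembl identifiers. Exact tests permuted the signs of the 4 within-library differences, and 0.13 (rounded) is the smallest p they can give. Limits on counts of 0 cover counting error only. Other tools were R 4.3.3, DESeq2 1.42.0, Python 3.11.15, numpy 2.4.6, scipy 1.17.1, scikit-learn 1.9.0 and matplotlib 3.10.9.

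Named genes were up to 12 with the largest rise and 10 with the largest fall among called genes of at least 20 CPM with 1 sign in all libraries, up to 4 called genes of each list by adjusted p, a short set of neuronal and progenitor genes given whatever their values, and called genes within 5 Mb of Stmn2. A few genes that this rule picked are not reported here. The cells and lists were chosen with earlier results of these data known. Alternatives changed the scaling factors, the count filter, the tool, the block, the Stmn2 limit, the matching, the phase, the depth, the limits on cells and the libraries. The comparison of cells with 1 or 2 Stmn2 UMIs and the chromosome 5 share without 5 genes were added after seeing the data.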

Additional observations from a re-analysis of the deposited data

Results flagged for a closer look

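In 3 of 71 groups of 4 libraries that were checked, 1 library stood apart from the other 3, and chance alone gives about 1 such group in 20. In each case it was replicate 1 at 39°C, which had 78 Stmn2 cells. Its log2 ratio of Stmn2 over matched cells was 2.43 for Scara5, 1.17 for Glul and -2.36 for Cd68, and each had the same sign in the other 3 libraries.

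For 12 named genes the log2 fold change differed between 39°C and 37°C by an interaction test over the 8 libraries with adjusted p under 0.05. Among genes that rose at 37°C, the difference was -1.12 for Cdhr1, -0.66 for Glul, -0.49 for Mettl7a1, -0.30 for Map1b, -0.46 for Map2 and -0.38 for Nes. Among genes that fell at 37°C, it was 1.92 for Tm4sf1, 1.09 for Lrrc28, 0.86 for Hspb1, 0.70 for Synm, 0.83 for Tsix and 0.70 for Olfml2b. For all of these but Map2 the direction was the same at both temperatures and the size was smaller at 39°C. Map2 rose by 0.20 at 37°C and was -0.27 at 39°C. Temperature and serum cannot be told apart in these differences.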

How the results depend on the processing

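Counts of called genes depended on the tool. DESeq2 called 3250 genes against all cells with 0 Stmn2 UMIs, 2040 against matched cells at 37°C and 499 at 39°C, where edgeR called 5598, 4462 and 1866. With no replicate block the counts were 4298, 3304 and 1239. The matched comparison at 37°C gave 1591 calls in G1, 2462 in S and 2561 in G2M, which have fewer cells per sum, and 1773 with cells thinned to 5000 UMIs, which also changes the Stmn2 limit and the matching, while cells with 1 or 2 Stmn2 UMIs gave 2007. At 39°C, 1009 genes were called with a limit of 5 Stmn2 UMIs, 9 in S and 2 in G2M, where few cells were. Leaving out 1 library gave 4799 to 4995, 3536 to 3953 and, at 39°C, 1215 to 1601, with 1222 without replicate 2 and 1215 without replicate 3. The share of Stmn2 cells was 27.1% with a limit of 2 UMIs, 12.4% with 5, 21.7% with a mitochondrial limit of 10%, 19.4% with no lower limit on UMIs, 22.2% with no upper limit on genes and 11.3% after thinning. The difference in G2M share turned to 3.49 points against all cells with 0 Stmn2 UMIs. Over 107 named genes and 2018 alternatives, 1860 kept direction and threshold, 148 lost the threshold and 10 reversed. In G1 alone the reversed values were -0.0423 for Tuba1a, -0.061 for Rab3a, 0.048 for Mki67, 0.0086 for Cenpe and -0.039 for Map2. In G2M alone they were -0.42 for Il33 and 0.083 for Celf5, in S alone 0.32 for Atf3, and after thinning 0.031 for Tubb6 and 0.041 for Uchl1. Mki67 and Cenpe were among the genes that assigned the phases. The causes of the reversals were not tested. The chromosome 5 median was -0.34 with 3 comparison cells per Stmn2 cell, which took every cell with 0 Stmn2 UMIs in replicates 1, 3 and 4 at 37°C and so was close to no matching, and -0.27 after thinning.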
